A study of Mus musculus with 47 samples.

Results

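Interferon-response genes were followed in brain RNA from 3xTg mice fed a Control diet or a diet low in isoleucine (IleR), leucine (LeuR) or valine (ValR). The 9 genes were listed by name, by a rule that names no measured value, although results of these data were known when the list was made: Ifit1, Ifit3, Isg15, Irf7, Oasl2, Usp18, Bst2, Ifitm3 and Ifi27. They are 9 of 55416 genes in the count tables, and none of the 9 was lost to the low-count filter, which left 22197 genes for the tests in males and 20344 in females. The mice were male and female homozygous 3xTg-AD animals, a model of Alzheimer's disease that carries human APP and tau transgenes under a neuronal promoter and a mutant presenilin allele. Every group carried the same alleles, the Control-fed mice included, and the diets began at 6 months of age and lasted 9 months. Counts were at hand for 14 libraries from males (Control 4, ValR 4, IleR 3 and LeuR 3) and for 23 from females (6 each of Control, ValR and LeuR, with 5 of IleR). A further 10 male libraries in the labels are not analysed here. A library is named by diet and by the number its label carries (Control 5, for example).

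Interferons are secreted when a cell senses foreign or misplaced nucleic acid, and they act through receptors, Janus kinases and STAT proteins to switch on a large set of antiviral genes. In the brain, microglia, endothelium, astrocytes and neurons can all carry this response, and a fraction of microglia with high interferon-stimulated genes is known from aged brain and from models of amyloid deposition. In RNA from a piece of tissue, a larger number of responding cells and more RNA per cell cannot be told apart.

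In the mouse genome (GRCm38, GENCODE M21), Ifit1 (chr19:34640871-34650009) and Ifit3 (chr19:34583531-34588731) lie close together on the plus strand. Isg15 lies on chr4:156199424-156200818, Irf7 on chr7:141262706-141266481, Ifitm3 on chr7:141009586-141010770 and Bst2 on chr8:71534255-71537456, all on the minus strand. Oasl2 lies on chr5:114896936-114912234, Usp18 on chr6:121245906-121270917 and Ifi27 on chr12:103434211-103440239, all on the plus strand. All are protein-coding genes. The factors that interferon activates bind an element of paired GAAA blocks, and because the members varied together over the female libraries, the stretches of their promoters that hold such letters are shown. They were read from RefSeq (GRCm38.p6), and the 250 bases before the annotated start were searched on both strands for GAAA followed by any 2 bases and another GAAA, with overlapping matches allowed. Capitals mark the letters of a match, and each stretch is printed on the strand of its gene.
Isg15: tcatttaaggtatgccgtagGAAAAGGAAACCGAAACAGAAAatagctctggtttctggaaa
Bst2: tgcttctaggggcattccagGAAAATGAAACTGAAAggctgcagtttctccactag
Ifit1: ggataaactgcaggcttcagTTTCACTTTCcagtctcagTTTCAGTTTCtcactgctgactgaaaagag
Ifit3: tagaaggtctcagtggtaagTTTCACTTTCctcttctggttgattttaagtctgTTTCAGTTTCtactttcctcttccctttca
The Isg15 stretch is chr4:156200855-156200916, with 3 overlapping matches from 78 to 57 bases before the start, and the Bst2 stretch is chr8:71537567-71537622, with 2 overlapping matches. The stretches of Ifit1 (chr19:34640765-34640833) and Ifit3 (chr19:34583353-34583436) hold 2 separate matches each, in the reverse orientation. The near-identical gene Ifit3b carries the same 84 letters at chr19:34607749-34607832. These letters stood in 4 of the 7 promoters of the set that the table holds, against 2.98% of all 32851 promoters, and not in those of Oasl2, Ifitm3 and Irf7. The letters TTCNNNGAA, which STAT dimers bind, were in the Bst2 window alone among the 7, against 7.02% of all promoters. The promoters of Usp18 and Ifi27 were not in the table. A match describes the sequence and is not a measured binding site.

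Depth and composition bear on every value. The total expected count per library ranged from 10672599 to 25722333, and a member had between 4 and 1577 counts in a library. Libraries of a group differed by more than counting error in each of 73 pairs compared. The study describes its groups as sets of mice, but the labels tie no library to a mouse, so p-values measure the spread between these libraries. A hindbrain score, the mean log2 CPM (counts scaled to library size with TMM factors) of cerebellum, brainstem and spinal cord markers minus that of forebrain markers, ran from -8.59 to -6.42 in the male Control libraries and from -4.75 to 2.82 in the restricted male libraries, with no overlap. In females the scores of the 4 diets overlapped. In males the regional makeup of the tissue and the diet therefore cannot be told apart. The labels give brain as the tissue but the extraction text names liver, and the study's methods name the left hemisphere, where its results name the whole brain. Brain markers were present in every group: the summed level of 8 neuronal genes was 4393 to 7133 CPM in males and 4375 to 7288 CPM in females.

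Per kilobase of exon, Ifi27, a small hydrophobic protein induced by interferon, was the most abundant of the set, with a median of 20.2 CPM per kilobase over 14 male libraries (17.0 to 60.1). Ifitm3, which blocks the fusion of enveloped viruses with cell membranes, followed with 13.3 (10.8 to 52.4). Ifit3 (7.07), a partner of Ifit1 in the same protein family, and Bst2 (5.67), the tetherin that holds budding virus at the cell surface, came next, and their ranges of 5.02 to 25.6 and 2.81 to 25.6 overlapped over most of their length. The other 5 genes had medians of 0.676 to 1.86, from Usp18 to Isg15. In females the median of Ifi27 was 17.6 CPM per kilobase (12.4 to 24.1), of Ifitm3 10.5, of Ifit3 5.72 and of Bst2 3.40, and those of the other 5 were 0.470 to 1.49. The lowest per-length levels in both sexes were those of Usp18, the protease that removes ISG15 from proteins, and of Irf7, the transcription factor that amplifies type I interferon genes. The annotated exons of Irf7 cover its whole gene, so its per-length level is a low estimate.

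The members of the RNA-binding and nucleotidyltransferase families are taken first. Oasl2, of the oligoadenylate synthetase family, had 8.72, 4.56, 10.9 and 56.4 CPM in male Control libraries 1, 3, 4 and 5. It had 5.28, 6.56 and 3.44 CPM in IleR 13, 14 and 17, 9.85, 9.37 and 9.31 CPM in LeuR 19, 20 and 21, and 5.11, 5.26, 5.19 and 6.50 CPM in ValR 7, 9, 10 and 12. Control 5 stood far above the other 13 libraries, and each restricted diet overlapped with the other Controls. Ifit1, which binds viral RNA that lacks host cap methylation, had 4.15, 3.02, 5.86 and 22.5 CPM in Controls 1, 3, 4 and 5. Its level was 3.16 to 4.66 CPM in IleR, 3.50 to 7.76 in LeuR and 2.59 to 3.82 in ValR. Control 5 again stood alone at the top, and the restricted diets overlapped with the other 3 Controls. Ifit3 had 15.5, 8.76, 22.3 and 44.6 CPM in Controls 1, 3, 4 and 5, 13.4, 11.3 and 11.3 CPM in IleR, 11.5, 14.8 and 16.9 CPM in LeuR, and 9.43, 9.64, 11.7 and 12.9 CPM in ValR. Control 3 was below every restricted library for Ifit3, and Control 5 above them all. Of the 50-base stretches of Ifit3, 51.2% also occur in Ifit3b, so the split of reads between them is uncertain, and 89.2% of its deposited counts were not whole numbers.

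**Figure D1:**
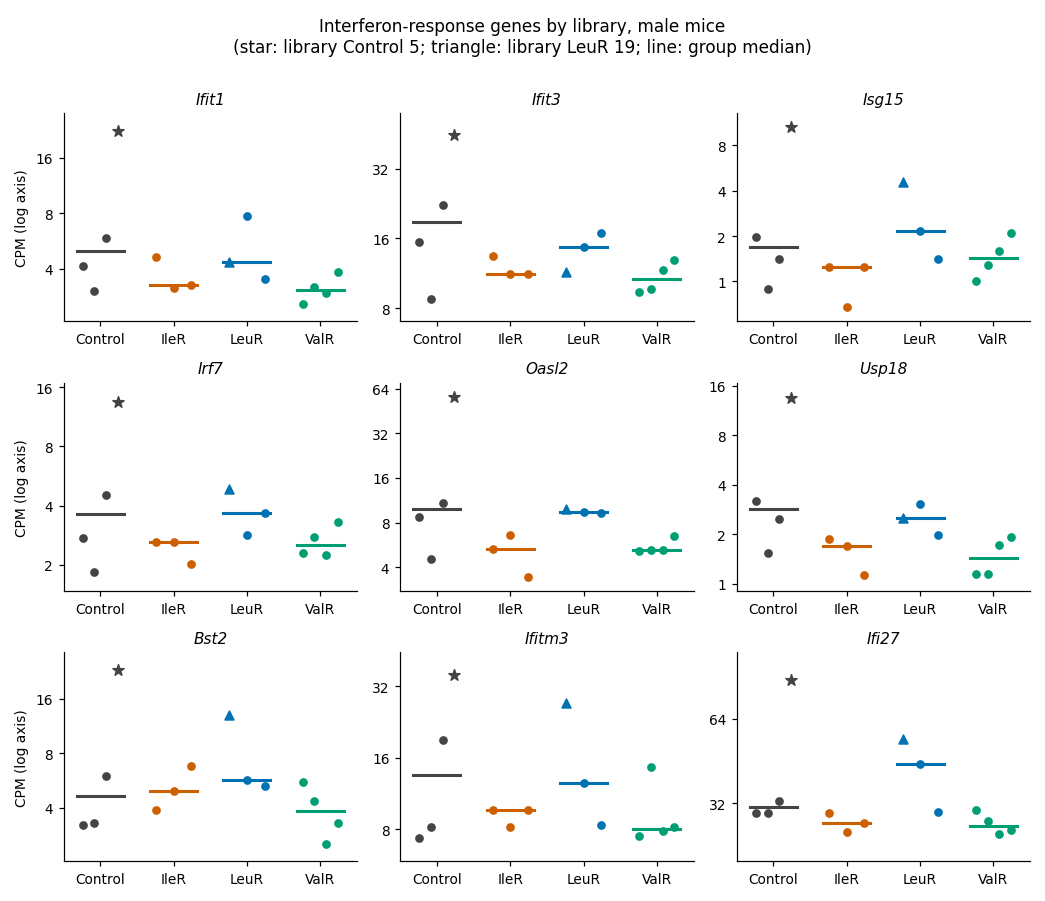
Level (CPM, log axis) of the 9 genes in each male library by diet, with the group median as a line, Control 5 as a star and LeuR 19 as a triangle. Control 5 is the highest of the 14 libraries in all 9 panels, at 56.4 CPM for Oasl2 against at most 10.9 CPM elsewhere.

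The ISG15 system, a ubiquitin-like tag with its protease, gave the same picture. Isg15 itself had 1.97, 0.888, 1.40 and 10.6 CPM in Controls 1, 3, 4 and 5, 1.24, 0.678 and 1.24 CPM in IleR, and 1.01, 1.28, 1.59 and 2.10 CPM in ValR. LeuR 19, at 4.57 CPM, stood above LeuR 20 and 21, at 2.15 and 1.41 CPM. Usp18 had 3.20, 1.54, 2.48 and 13.4 CPM in Controls 1, 3, 4 and 5, 1.86, 1.70 and 1.13 CPM in IleR, 2.51, 3.07 and 1.98 CPM in LeuR, and 1.15, 1.15, 1.71 and 1.91 CPM in ValR. For Usp18 the lowest 3 libraries of the 14 were restricted, and Control 3 lay within the ValR range. Irf7 had 2.72, 1.83, 4.52 and 13.5 CPM in Controls 1, 3, 4 and 5 and 2.01 to 4.88 CPM in the 10 restricted libraries. Its exons overlap those of Phrf1 on the other strand, and those of Usp18 overlap Gm44148; whether the counting used strand is not given in the sources used here.

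The remaining genes act at membranes, and LeuR 19 stood out for them as well as Control 5. Bst2 had 3.20, 3.31, 5.98 and 23.1 CPM in Controls 1, 3, 4 and 5, 3.91, 4.94 and 6.81 CPM in IleR, 13.0, 5.69 and 5.31 CPM in LeuR, and 5.54, 4.38, 2.54 and 3.31 CPM in ValR. Ifitm3 had 7.35, 8.17, 19.0 and 35.5 CPM in Controls 1, 3, 4 and 5, 27.1, 12.6 and 8.35 CPM in LeuR, 8.17 to 9.66 CPM in IleR and 7.49 to 14.7 CPM in ValR. Ifi27 had 29.6, 29.6, 32.6 and 88.1 CPM in Controls 1, 3, 4 and 5, 29.6, 25.3 and 27.3 CPM in IleR, 54.1, 44.1 and 29.8 CPM in LeuR, and 30.3, 27.6, 24.9 and 25.7 CPM in ValR. For these 3 genes, and for Isg15 and Irf7, LeuR 19 was the next highest male library after Control 5. LeuR 19 also held the highest summed level of 12 blood leukocyte markers, 226 CPM against 0.956 to 21.0 CPM in the other male libraries, and of 5 red blood cell markers, 19630 CPM against 581 to 6780 CPM. It was also the top male library for the summed markers of choroid plexus (4931 CPM, with the next at 3060 CPM), microglia (669 and 656 CPM), endothelium (672 and 628 CPM) and oligodendrocytes (18455 and 16735 CPM). The part of these cell types in the levels of LeuR 19 was not tested.

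With all male libraries, each of the 9 genes had a negative log2 fold change in edgeR for each restricted diet against Control. Of these values, 3 passed the test, all for ValR. For ValR the members called were Usp18 (-1.79 ± 0.56 SE), Oasl2 (-1.87 ± 0.59) and Ifit3 (-1.06 ± 0.36), at adjusted p = 0.0328, 0.0360 and 0.0490. These come from the quasi-likelihood test of edgeR with Benjamini-Hochberg adjustment over all genes, as do all adjusted p-values of single genes here. This is 3 of 9, where 23.5% of all genes tested were called and 12.4% were called lower, and 6 of 9 had an unadjusted p under 0.05, against 35.2% of all genes. Voom called 0 of them (smallest adjusted p = 0.136), DESeq2 called these 3 and Ifit1, and a robust edgeR fit, chosen after seeing the data, called Oasl2 and Usp18. The shares of all genes called by these other fits are not given here, so their counts are not read against a background. The median over the members was -1.18 for ValR, against 0.03 over all genes. The summed level of 15 microglia markers had a median of 552 CPM in Control and 404 CPM in ValR, and with the microglia score as a covariate the median over the members was -0.45, with 0 called where 21.6% of all genes were. Control 5 had the highest microglia score of the male Controls (4.75), and the part of microglia in the ValR values was not tested. Ifit1, at -1.50 ± 0.53, had an adjusted p of 0.0549. For IleR the median was -1.23 and the values ran from -0.72 for Ifi27 to -1.98 for Oasl2. None of the members was called by edgeR for IleR, where 15.3% of all genes were, and 6 of 9 had an unadjusted p under 0.05, against 29.6% of all genes. Limma voom called 0 and DESeq2 called Oasl2 and Usp18, again with no share of all genes by these tools beside them. For LeuR the median was -0.57, no member was called by edgeR, voom or DESeq2, 0 had an unadjusted p under 0.05 in any of these, and 10.1% of all genes were called by edgeR. In voom the medians were smaller, at -0.16 for LeuR, -0.82 for IleR and -0.78 for ValR, and 5 of the 9 LeuR values were negative. The ranges of IleR and Control did not overlap for Ifi27, with 29.6 CPM as both the highest IleR and the lowest Control level after rounding, where this was so for 29.3% of all genes. They overlapped for all 9 members for LeuR and ValR, where 17.7% and 26.4% of genes did not overlap.

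**Figure D2:**
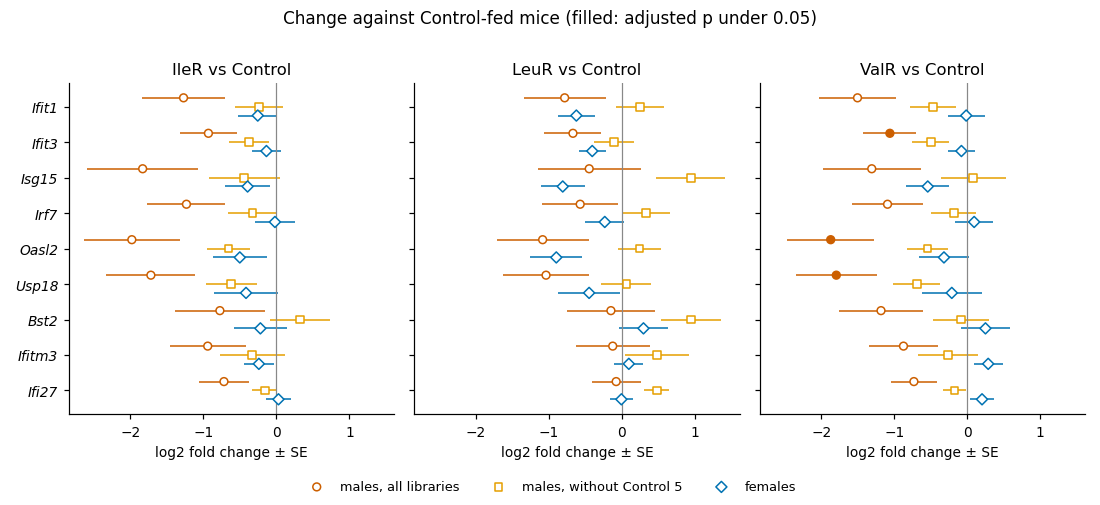
Log2 fold change ± SE of the 9 genes for each restricted diet against Control in males with all libraries, in males without Control 5 and in females, with filled symbols for an adjusted p under 0.05. The filled symbols are Ifit3, Oasl2 and Usp18 for ValR in males with all libraries, and without Control 5 the male values lie between -0.69 and 0.95.

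The size of these values rested largely on 1 Control library. Without Control 5 the median over the members was -0.33 for IleR and -0.26 for ValR, with 8 of the 9 values still negative for each. It was 0.33 for LeuR, where 8 of the 9 values turned positive. Oasl2 then stood at -0.65 ± 0.30 for IleR and -0.54 ± 0.28 for ValR, and Usp18 at -0.69 ± 0.32 for ValR. No member was called for any diet without Control 5, where 11.7%, 5.78% and 18.9% of all genes were called for IleR, LeuR and ValR. At an unadjusted p under 0.05 there was 1 member for IleR, 2 for LeuR (Ifi27 at 0.48 ± 0.17 and Bst2 at 0.95 ± 0.41) and 0 for ValR, against 27.1%, 24.5% and 32.5% of all genes. When any 1 of ValR 7, 9, 10 or 12 was left out, 0 members passed the test for ValR. The median over the members then stayed between -1.10 and -1.24, against -0.26 without Control 5. Without Control 3 the ValR calls numbered 5. The share of all genes called moves too when a library is left out (18.9% without Control 5, against 23.5% with all), so these counts are not read as results about the members. For ValR 7, 10 and 12 that share stands with the pathway counts below. For a difference over the 4 male diets in either direction, 0 members were called with all libraries, where 19.3% of genes were, and 3 had an unadjusted p under 0.05, against 34.5% of genes. Without Control 5, Ifi27 alone was called (adjusted p = 0.0433), where 13.3% of genes were, with LeuR 19 and 20 at its top.

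Between the restricted diets in males, 0 members were called by edgeR, voom or DESeq2, and 0 had an unadjusted p under 0.05 in any of these. All 9 were lower in ValR than in LeuR (median -0.75) and in IleR than in LeuR (median -0.66). The share of all genes called was 2.75% for ValR against LeuR (1.73% higher and 1.03% lower), and 0% both for IleR against LeuR and for ValR against IleR. Ifi27, at -0.65 ± 0.33, had the smallest unadjusted p for ValR against LeuR, 0.071. At an unadjusted p under 0.05 there were 23.9% of all genes for ValR against LeuR, 11.3% for IleR against LeuR and 2.83% for ValR against IleR. Without LeuR 19 the medians were -0.48 and -0.44. With the microglia score as a covariate they were -0.27 for ValR, with 7 of 9 lower, and -0.52 for IleR, with 9 of 9 lower, and 0 members were called in edgeR. Without Control 5 the medians were -0.75 and -0.66, and 5 and 3 members had an unadjusted p under 0.05, against 22.8% and 10.4% of all genes, with 0 called. The smallest was that of Ifi27 for ValR against LeuR (adjusted p = 0.0668 by edgeR). With only the 2 groups in the fit the counts were also 5 and 3, with no share of all genes given for that fit. For ValR against IleR the median was -0.01, with 5 of 9 values negative, and without Control 5 no member had an unadjusted p under 0.05, against 2.61% of all genes.

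Control 5 was the highest of the 14 male libraries for all 9 members, and by over 2-fold for 6 of them. Oasl2 was 5.18-fold, Usp18 4.17-fold, Ifit1 2.89-fold and Irf7 2.77-fold above the next library, and the gap was smallest for Ifitm3, at 1.31-fold. Over all genes tested, Control 5 was the highest library for 5.15%, and by over 2-fold for 0.248%. Of 122 other tested genes of the pathway, from a list written by hand, it was the highest for 62. Those were 53 of 86 other interferon-stimulated genes, 4 of 14 nucleic acid sensors and adaptors, 2 of 6 signal transducers, 2 of 6 receptors and 1 of 10 inhibitors. Rtp4, a transmembrane chaperone, stood at 14.2 CPM against at most 4.39 CPM in the other 13 libraries, and Gbp3, a guanylate-binding GTPase, at 23.8 against 6.81 CPM. Among the transducers, Irf9 (30.7 against at most 19.2 CPM), a part of the factor that binds the GAAA element, was highest there, while Stat2 (48.3 CPM), which acts with it, ranked 8 of 14. The sensors highest there were Ddx58 (18.9 CPM), Ifih1 (15.4), Dhx58 (3.86) and Zbp1 (1.45). Ifnar1, the receptor with the highest mean level, had 58.8 CPM against 41.5 to 57.0 CPM elsewhere, and Tbk1, the sensor kinase with the highest, had 48.4 CPM against 40.1 to 55.0 CPM. None of 13 interferon ligand genes passed the filter.

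**Figure D3:**
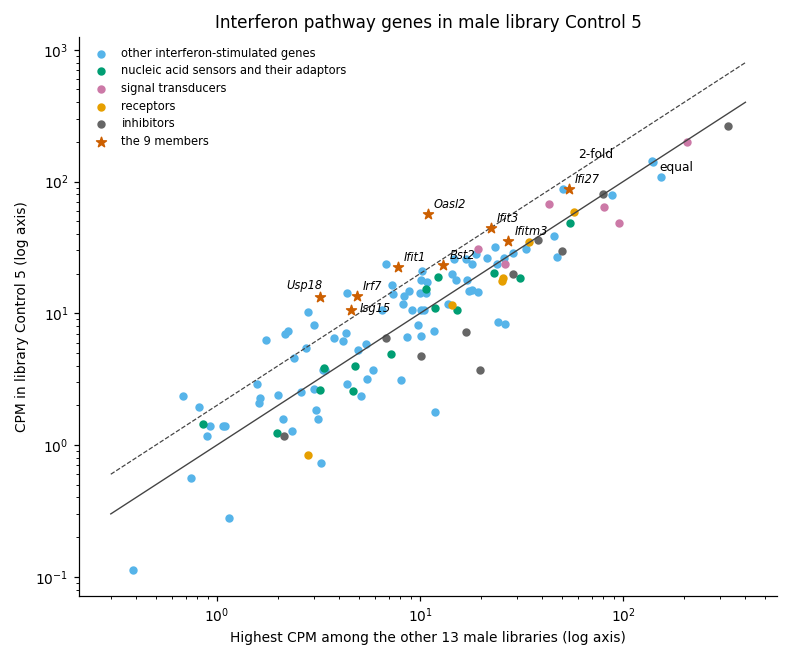
Level in male library Control 5 against the highest level among the other 13 male libraries (CPM, log axes) for the 9 members and 122 other genes of the interferon pathway, coloured by role, with lines of equality and of a 2-fold gap. All 9 members and 62 of the other genes lie above the line of equality, with Oasl2 at 56.4 against 10.9 CPM.

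The summed cell type markers of Control 5 lay within the range of the other 13 male libraries for the 5 lists given here, and 4 of the 5 (microglia, choroid plexus, red blood cell and oligodendrocyte) were above the other Controls. Its 15 microglia markers summed to 604 CPM, the highest of the 4 Controls (475 to 604 CPM) and within the 339 to 669 CPM of the restricted libraries, and it was the top male library for 2 of the 15. Its 12 blood leukocyte markers summed to 9.22 CPM, between the 3.25 and 21.0 CPM of the other Controls, with 3 of the 12 at 0. Its choroid plexus markers summed to 3060 CPM, against 15.6 to 832 CPM in the other Controls and 20.5 to 4931 CPM in the restricted libraries. Its red blood cell markers summed to 4118 CPM, against 581 to 3169 CPM in the other Controls, and its oligodendrocyte markers to 9858 CPM, against 4711 to 8436 CPM. The part of these cell types in its interferon-gene levels was not tested.

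In females 0 members were called for any diet by edgeR, voom or DESeq2, and 0% of all genes were called by edgeR in each comparison with Control. The values were closest to a shift for LeuR, where 7 of 9 were negative, the median was -0.40 and 4 members had an unadjusted p under 0.05, against 4.03% of all genes. By voom 1 member and by DESeq2 4 members had an unadjusted p under 0.05. Those 4 were Isg15, Oasl2, Ifit1 and Ifit3, with log2 fold changes of -0.81 ± 0.30, -0.90 ± 0.36, -0.62 ± 0.26 and -0.40 ± 0.19, and adjusted p-values of 0.968 each (edgeR, Benjamini-Hochberg). Isg15 had a lowest, median and highest level of 0.685, 1.56 and 2.92 CPM in the 6 Controls and of 0.588, 1.00 and 1.40 CPM in the 6 LeuR libraries. The groups overlapped. Oasl2 had 3.20, 6.27 and 16.1 CPM in Control and 2.48, 3.94 and 5.75 CPM in LeuR. Ifit1 had 1.55, 3.25 and 4.71 CPM in Control and 1.57, 1.89 and 2.81 CPM in LeuR. For Ifit3 the values were 7.02, 12.0 and 16.4 CPM in Control and 7.63, 8.49 and 11.6 CPM in LeuR. For Oasl2, 2 of the 6 LeuR libraries lay below the lowest Control, for Isg15 1 did, and for Ifit1 and Ifit3 none did. Without Control 26, 1 member was left at an unadjusted p under 0.05 for LeuR, and without Control 27, Control 28 or LeuR 47, 2 were. The median for LeuR was -0.23 without Control 26.

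For female IleR the median was -0.24, and 8 of 9 values were negative with none at an unadjusted p under 0.05 in edgeR, voom or DESeq2, against 2.84% of all genes in edgeR. That median was -0.11 without Control 26 or without Control 27. Oasl2 had 9.96, 4.27, 3.76, 2.98 and 5.13 CPM in IleR 38, 39, 40, 41 and 42, and Isg15 had 1.87, 1.25, 0.725, 1.24 and 1.33 CPM. IleR 38 was the highest of its group for both genes. For ValR the median was -0.01, and with single libraries left out it ran from -0.13 to 0.13. Here 5 of 9 values were negative, none had an unadjusted p under 0.05 (3.82% of all genes), and Isg15 (-0.54 ± 0.29) had the largest value in size. Oasl2 had 4.36, 5.73 and 7.65 CPM as lowest, median and highest in ValR, inside the Control range. The range of each restricted diet overlapped that of Control for all 9 members, where 0.251%, 0.216% and 0.128% of genes did not overlap for IleR, LeuR and ValR. Between the restricted diets 0 members and 0% of all genes were called by edgeR, and 0 members by voom or DESeq2. The 2 values with an unadjusted p under 0.05 in edgeR were Ifitm3 for ValR against IleR (0.53 ± 0.21, adjusted p = 1.00) and Ifit1 for ValR against LeuR (0.61 ± 0.26, adjusted p = 0.935). Over all genes 4.16% had such a p for ValR against IleR, 4.98% for ValR against LeuR and 6.14% for IleR against LeuR. For a difference over the 4 female diets, 0 members were called, none had an unadjusted p under 0.05 in edgeR, voom or DESeq2 (4.41% of all genes in edgeR), and 0.0197% of all genes were called.

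**Figure D4:**
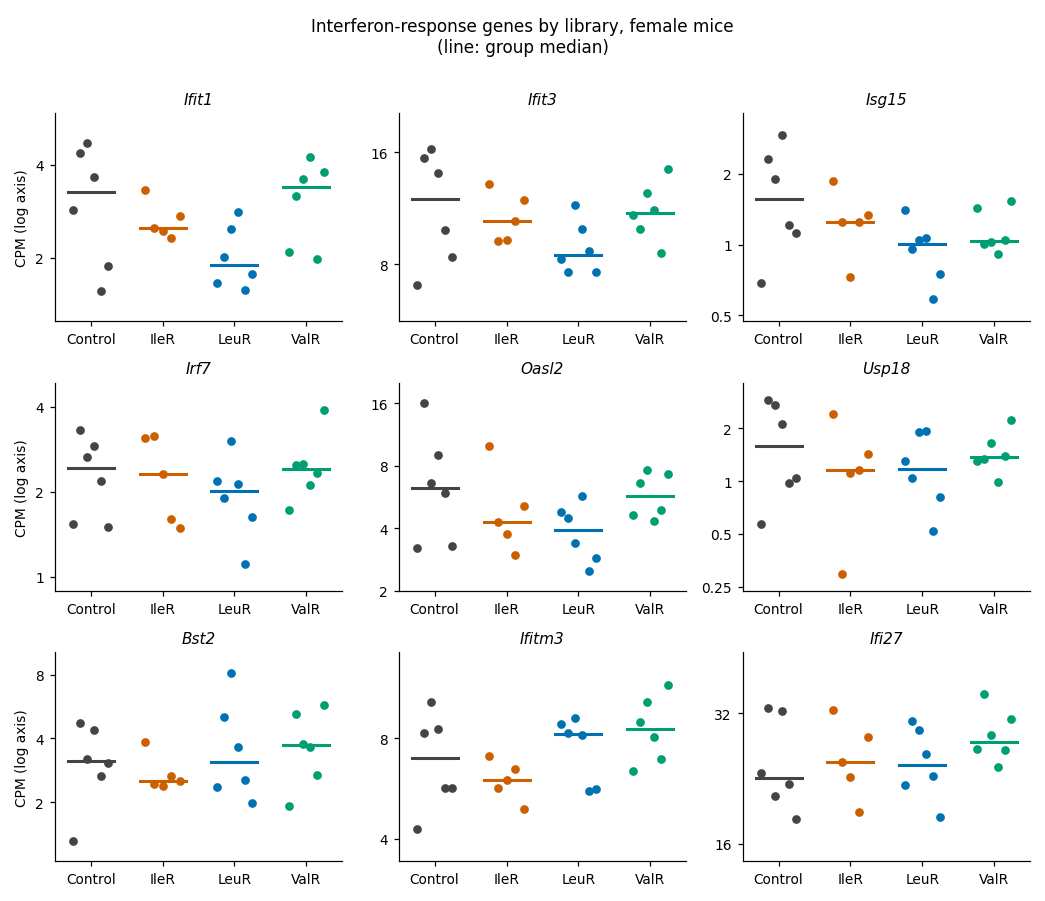
Level (CPM, log axis) of the 9 genes in each female library by diet, with the group median as a line. The Control libraries span 3.20 to 16.1 CPM for Oasl2, and the groups overlap in every panel.

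The spread among the female Controls ran through the whole set. Averaged over the 9 genes, with each gene's log2 CPM scaled to a mean of 0 and an SD of 1 over the females, Controls 26, 28 and 27 stood at 1.47, 1.16 and 0.87, and Controls 29, 30 and 25 at -0.45, -0.81 and -1.21. The restricted libraries lay between -1.27 (LeuR 47) and 1.24 (ValR 36). After subtraction of each diet's mean, the correlation of a member with the mean of the other 8 was 0.64 (Ifi27) to 0.84 (Ifitm3) over 23 female libraries, and 0.66 to 0.83 without Controls 25 and 26. Over the 14 male libraries it was 0.78 to 0.95, and without Controls 5 and 3 it was -0.04 to 0.62 over 12, so the male relation rested largely on those libraries. These correlations are descriptions, since the genes share libraries and depth. The non-members most like the set in females were Gbp3 (r = 0.90), Lgals3bp (0.89), Gbp2 (0.86), B2m (0.85) and Ddx58 (0.85) out of 13887 genes, all on the pathway list. In males they included Rtp4 (0.97), Utp14b (0.92), Loxl1 (0.92) and Gbp3 (0.91), and without Control 5 these 4 genes had 0.90, 0.67, 0.71 and 0.53. The genes most like the set over the 13 males without Control 5 were Fundc2 (0.98), Dhrs4 (0.92), Ccdc126 (0.91), F13a1 (0.90) and Rtp4 (0.90). Of these, Rtp4 alone is on the pathway list.

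Whether a diet's change differed between the sexes was tested in 1 model of all 37 libraries. For ValR all 9 members had a more negative value in males, with a median difference of -1.22 (log2, male minus female), and 0 were called, where 5.94% of genes were. At an unadjusted p under 0.05 there were 8 of 9, against 27.7% of all genes, voom called 0 and DESeq2 called Ifit1 and Ifi27. Without Control 5 the median difference was -0.37 and 0 of 9 had an unadjusted p under 0.05, against 25.1% of all genes, where 3.06% of genes were called. For IleR the median difference was -1.04, with 0 called and 3 at an unadjusted p under 0.05 (20.2% of all genes), where 0.264% of genes were called, and voom and DESeq2 called 0. Without Control 5 it was -0.16, with 0 at an unadjusted p under 0.05 (18.4% of all genes), where 0% of genes were called. For LeuR it was -0.21 in edgeR and 0.06 in voom, with 0 called by edgeR, voom or DESeq2 and 0 at an unadjusted p under 0.05 (13.7% of all genes), where 0.00498% of genes were called. Without Control 5 the LeuR difference had the other sign for the set, with a median of 0.57, 3 members at an unadjusted p under 0.05 (12% of all genes) and Isg15 at 1.76 ± 0.54 (adjusted p = 0.185, edgeR, Benjamini-Hochberg).

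Other genes of the pathway, from the same hand-written list, are described by role. Of 122 tested in males, 6 were lower and 0 higher for IleR (8.68% and 6.63% of all genes), 4 lower and 2 higher for LeuR (6.33% and 3.81%), and 15 lower and 2 higher for ValR (12.4% and 11.1%). The median over the list was -0.33, -0.03 and -0.38. In females 0 of 121 were called for any diet. Among receptors, Ifngr2, a chain of the interferon gamma receptor, fell by 0.35 ± 0.10 for IleR and by 0.31 ± 0.09 for ValR. Ifnar2 rose by 0.37 ± 0.11 and Ifnlr1 by 1.50 ± 0.43 for LeuR. Among transducers Jak1 fell by 0.26 ± 0.08 for IleR, and Jak2 fell by 0.67 ± 0.15 for LeuR and by 0.45 ± 0.14 for ValR. Stat2 rose by 0.85 ± 0.21 for ValR. Of these, Stat2 for ValR and Jak2 for LeuR were called without Control 5, and the calls of Ifngr2, Ifnar2, Ifnlr1, Jak1 for IleR and Jak2 for ValR were lost. Without Control 5, Ifngr2 stood at -0.33 for IleR and -0.29 for ValR, Ifnar2 at 0.38 and Ifnlr1 at 1.68 for LeuR, Jak1 at -0.26 for IleR and Jak2 at -0.46 for ValR.

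Among inhibitors, Irf2, a repressor of interferon-stimulated genes, fell by 0.71 ± 0.14 for IleR, 0.58 ± 0.14 for LeuR and 0.66 ± 0.13 for ValR. Adar, the RNA-editing enzyme that keeps self RNA from being sensed, fell by 0.35 ± 0.11 for ValR. Of the 14 genes listed as sensors and adaptors, 0 passed the test for any diet in edgeR, and 3 for IleR, 2 for LeuR and 2 for ValR had an unadjusted p under 0.05, against 29.6%, 27.0% and 35.2% of all genes. Among the other interferon-stimulated genes, Herc6, the mouse ligase that attaches ISG15, had 16.8, 18.8, 11.3 and 28.3 CPM in Controls 1, 3, 4 and 5 and 5.31 to 9.71 CPM in all 10 restricted libraries. The groups did not overlap for Herc6. With each diet set against Control alone, 29.3%, 17.7% and 26.4% of all genes did not overlap for IleR, LeuR and ValR. Herc6 fell by 1.63 ± 0.24 in ValR, 1.47 ± 0.26 in IleR and 1.10 ± 0.26 in LeuR, where edgeR gave Benjamini-Hochberg adjusted p = 0.000448, 0.00292 and 0.0201. Znfx1, an interferon-induced helicase, fell by 0.61 ± 0.17 in ValR, 0.66 ± 0.18 in IleR and 0.78 ± 0.18 in LeuR. H2-T23, a class Ib MHC chain, fell by 0.98 ± 0.25 for IleR and 0.93 ± 0.23 for ValR, and Igtp, an immunity-related GTPase, by 1.38 ± 0.35 for ValR. Ifit3b, the near-identical neighbour of Ifit3, fell by 1.02 ± 0.35 for ValR. H2-D1, the class I chain with the highest mean level on the list in males, rose by 0.83 ± 0.27 for ValR.

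Several of these calls remained without Control 5. Herc6 was called for all 3 diets, at -1.36 ± 0.21 in ValR, -1.21 ± 0.22 in IleR and -0.83 ± 0.22 in LeuR. Irf2 was called for IleR and ValR, with an adjusted p of 0.0546 for LeuR. Znfx1 was called for LeuR but not for IleR (-0.58 ± 0.19) or ValR (-0.52 ± 0.18), and H2-T23 for ValR but not for IleR (-0.78 ± 0.24). Ifit3b was not called for ValR, where its value was -0.48 ± 0.25, against -1.02 with all libraries. In all, 2 of the 6 IleR calls, 3 of the 6 LeuR calls and 7 of the 17 ValR calls were called in both fits. Without Control 5, of 122 tested, 2 were lower and 1 higher for IleR (6.95% and 4.78% of all genes). For LeuR 3 were lower and 0 higher (3.98% and 1.8%), and for ValR 5 were lower and 2 higher (10.3% and 8.6%). H2-D1 was called for IleR and ValR without Control 5. The LeuR count was 0 without Control 3, where 3.58% of all genes were called, 0 without LeuR 19 (2.41%) and 1 without Control 1 (3.85%), against 10.1% with all libraries. The IleR count was 13 without Control 4, where 19.5% of all genes were called, and 2 or 3 without any 1 of the 3 IleR libraries (8.07% to 10.9%), against 15.3%. The ValR count was 7 without ValR 7 (18.3%), 9 without ValR 10 (17.5%) and 11 without ValR 12 (17.8%), against 23.5%.

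Of the genes called in males, 4 were set against the hindbrain score in females, where that score did not separate the diets, together with the 9 members. The 4 were chosen after their male values were seen. Over 23 female libraries, with diet means subtracted, the correlation of log2 CPM with the score was -0.74 for Herc6, -0.70 for Irf2, -0.75 for Znfx1 and -0.85 for H2-T23. The Spearman correlations were -0.76, -0.78, -0.82 and -0.84, and the largest adjusted p of the 4 was 0.00078 (two-sided permutation test, 100000 resamples, 13 relations). Without LeuR 45 and Control 30 the 4 values were -0.62, -0.62, -0.76 and -0.80. Herc6, for example, had 4.72 CPM in Control 30, at a score of 1.24, and 25.8 CPM in Control 28, at -7.07. For the members the correlations ran from -0.41 (Ifi27) to 0.145 (Bst2), with adjusted p-values of 0.141 or more by Pearson and 0.0622 or more by Spearman in the same test. For Ifi27 it was -0.55 without LeuR 45 and Control 30. With the hindbrain score as a covariate, 0 members and 0 pathway genes were called in males for each diet against Control, where 0.0135%, 0.0451% and 0% of all genes were called for IleR, LeuR and ValR. The medians over the members were then -1.46, -0.81 and -1.59, in a fit where the scores of Control and the restricted diets do not overlap.

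**Figure D5:**
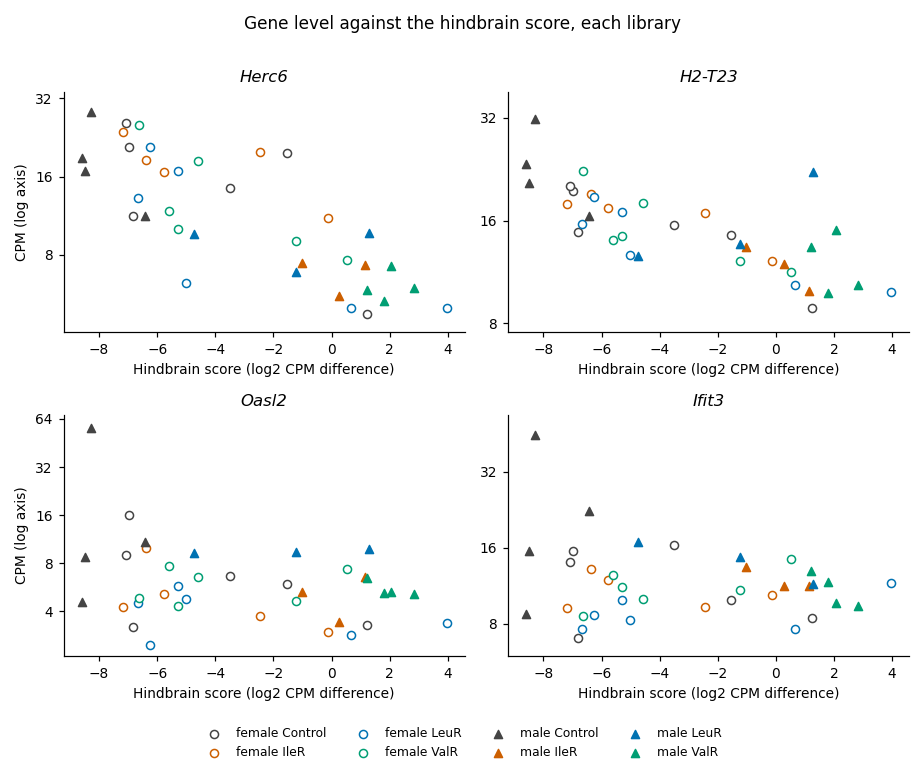
Level (CPM, log axis) of Herc6, H2-T23, Oasl2 and Ifit3 in each library against its hindbrain score, a difference of mean log2 CPM, with open circles for females and filled triangles for males, coloured by diet. Herc6 and H2-T23 are lower at higher scores in females (r = -0.74 and -0.85), and Oasl2 and Ifit3 stand highest in 1 male Control library.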

How the data were processed

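Bulk RNA sequencing of brain was compared between diets within each sex. The deposited values are expected counts per gene with Ensembl IDs, which the authors made by alignment to GRCm38.p5; the aligner is not given in the sources used here, and the study's methods state that outlying samples were removed after principal component analysis. The authors' tables of their own comparisons (log2 fold changes and p-values) were not used.

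Expected counts were rounded to whole numbers. A gene was kept if every library of some diet held 1 count of it or more, TMM factors were computed, and edgeR 4.0.16 quasi-likelihood tests in R 4.3.3 were fitted to all libraries of a sex, or of both sexes for differences between them. P-values were adjusted over all genes tested (Benjamini-Hochberg), and an adjusted p under 0.05 is a call. Levels are TMM-scaled CPM, and log2 CPM used a prior count of 2. Limma 3.58.1 voom, DESeq2 1.42.0, other filters, covariates and each library left out were alternatives. Groups came from the labels, and symbols from GENCODE M21. The fits were tested on simulated data. The members and lists were chosen with earlier results of these data known.

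The named pathway genes are at most 3 called genes with the lowest p per role and comparison, the gene with the highest mean level per role, and near-identical neighbours of members. Others were named after their values were seen: the genes that stood highest in Control 5, and those of the hindbrain relation. At 10672599 to 25722333 counts per library, a count of 4, the lowest of any member, is a low and imprecise value. The values of 1 gene of the pathway list are not reported here.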

Additional observations from a re-analysis of the deposited data

Results flagged for a closer look

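In 54 groups of 4 to 6 libraries, the distance of the highest or lowest library to its neighbour was set against the range of the group and compared with the 95% critical value of Dixon's test. Of these groups 10 passed it, where chance passes about 1 in 20 groups if they are independent. The 9 genes share libraries and vary together, so these groups are not independent. Of the 10, 6 were among the 9 male Control groups. In each of the 6 the library was Control 5, the highest. The share of the range taken by its gap was 0.949 for Ifi27, 0.888 for Isg15, 0.878 for Oasl2, 0.860 for Bst2, 0.859 for Usp18 and 0.854 for Ifit1.

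The other 4 stood alone. ValR 12 was highest among male ValR for Oasl2 (6.50 against 5.26 CPM, a share of 0.893), and ValR 9 for Ifitm3 (14.7 against 8.22 CPM, 0.898). Among females, ValR 36 was highest for Irf7 (3.90 against 2.51 CPM, 0.639) and IleR 38 for Bst2 (3.86 against 2.67 CPM, 0.803).

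The log2 fold change for ValR differed between males and females, male minus female, by -1.13 ± 0.28 for Trim25, a ubiquitin and ISG15 ligase, by -1.66 ± 0.48 for Rtp4, by -1.86 ± 0.56 for Oas1a, an oligoadenylate synthetase, and by -1.57 ± 0.45 for Igtp, with adjusted p-values of 0.0227, 0.0377, 0.0443 and 0.0387 (edgeR, Benjamini-Hochberg). These 4 were the genes called of 121 pathway genes tested, where 5.94% of all genes were called. Without male Control 5 the differences were -0.92, -0.76, -0.99 and -1.11, with adjusted p-values of 0.0618, 0.189, 0.187 and 0.119 (edgeR, Benjamini-Hochberg). In that fit 3.06% of all genes were called. The values within males and within females were -0.87 and 0.24 for Trim25, -1.42 and 0.21 for Rtp4, -1.30 and 0.53 for Oas1a, and -1.38 and 0.16 for Igtp.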

How the results depend on the processing

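For ValR against Control in males the count of called members was 0 with voom, with only the 2 groups compared, with the hindbrain or the microglia score as a covariate, and with Control 5 and LeuR 19 both left out, and it ran from 0 to 5 with single libraries left out. The pathway count there was 0 with the hindbrain score, 10 with the microglia score and 9 with both libraries left out, and 7 to 19 with single libraries left out. For IleR the members called were 2 with DESeq2 and 0 to 3 with single libraries left out, and the pathway genes were 12 with filterByExpr, 17 with DESeq2, 0 and 10 with the 2 scores, and 2 to 13. For LeuR the pathway genes were 11 with DESeq2, 0 with only the 2 groups compared, 0 and 11 with the 2 scores, 0 with both libraries left out, and 0 to 9. For any male diet the members called were 2 with DESeq2 and 0 to 3, and for the sex difference of ValR 2 with DESeq2 and 0 to 1. Fewer samples enter some of these fits, and for the rest the cause was not tested. Most of these counts stand without the share of all genes called in the same fit, so they are not read as results about the members. Leaving out both libraries and the robust edgeR fit were chosen after seeing the data. In females 0 members were called under the alternatives run, and 0 pathway genes except 1 for any diet with DESeq2. The share of all genes called also moved by over 1.5 times. For males it was 9.61%, 6.57% and 15.1% for IleR, LeuR and ValR without the filter against 15.3%, 10.1% and 23.5%, and 0.0135%, 0.0451% and 0% with the hindbrain score. For LeuR it was 16.3% with DESeq2, 15.4% with the microglia score, 0% with only the 2 groups compared and 0.181% with both libraries left out, and for ValR against LeuR 11.2% with DESeq2 against 2.75%. For the sex difference of IleR, LeuR and ValR DESeq2 gave 5.16%, 1.58% and 11.7% against 0.264%, 0.00498% and 5.94%. No paired analysis was possible because the library numbers are unique and no number is shared between groups.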
